A study of Sus scrofa with 16 samples.

Results

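The well-measured predicted miRNAs of the sow ovary are the entries that the miRNA prediction added to the annotated porcine miRNAs and that had at least 10 counts in at least 8 of the 16 libraries. Of the 1940 entries of the count table, 1724 are predicted and 216 are known. The count rule was met by 127 predicted entries, and where entries had the same counts in all 16 libraries the first of them was kept, which left 117 members. The members were thus chosen by their raw counts, and their levels are given as a description. Ovaries came from 16 Canadian Large White sows, 1 small RNA library per sow, 4 sows in each of 4 groups. LH (high fecundity) and LL (low fecundity) were collected on day 14 of the estrous cycle, in the luteal phase, and FH (high fecundity) and FL (low fecundity) on day 20, in the follicular phase. Fecundity was assigned from the number of piglets born, all sows were of 1 breed, and no treatment is named for any of them. LH1 to LH4, and likewise for the other groups, name the 4 sows of a group. Whole ovarian tissue was used, in which fewer cells of a type and less RNA per cell cannot be told apart.

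A miRNA is a short RNA cut from the hairpin of a longer precursor. Its seed, bases 2 to 8 from the 5′ end, sets most of its pairing with target mRNAs, and miRNAs with a shared seed are grouped as a family. A predicted entry is a genome position where reads lie on a stretch that folds into such a hairpin and whose miRNA was not in the annotation used. In the ovary, miRNAs are known from granulosa, theca and luteal cells, where they act on steroid synthesis, proliferation and cell death.

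Mature sequences and Sscrofa10.2 positions were listed for 115 of the 117 members, and NovelmiRNA-1708 and NovelmiRNA-994 had neither. The 115 members had 110 different mature sequences and 99 different seeds, and 30 of them shared a seed with another member. The sequences below are those on which the results turn, with the seed in capitals. Family names are background knowledge of the seed, since no miRNA reference was used here. The 3 members with the highest mean level come first, carrying the seeds of miR-26 (NovelmiRNA-392 and NovelmiRNA-786) and of let-7 (NovelmiRNA-1304).
NovelmiRNA-392: uUCAAGUAauucaggauagguu
NovelmiRNA-786: uUCAAGUAacccaggauaggcu
NovelmiRNA-1304: uGAGGUAGuaggcugugugg
The next 6 share a pattern over the sows. They carry the seeds of miR-200b and miR-200c (NovelmiRNA-800 and NovelmiRNA-388), miR-141 (NovelmiRNA-150), miR-34 and miR-449 (NovelmiRNA-240 and NovelmiRNA-337) and miR-375 (NovelmiRNA-1515), families known from epithelia, including ciliated and secretory cells.
NovelmiRNA-800: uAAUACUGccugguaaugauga
NovelmiRNA-388: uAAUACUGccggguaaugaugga
NovelmiRNA-150: uAACACUGucugguaaagaug
NovelmiRNA-240: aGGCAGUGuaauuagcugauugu
NovelmiRNA-337: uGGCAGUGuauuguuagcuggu
NovelmiRNA-1515: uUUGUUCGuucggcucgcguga
The last 6 passed a test in a comparison described further on. NovelmiRNA-283 has the seed of miR-378, a miRNA described in porcine granulosa cells, and NovelmiRNA-1526 has that of miR-371-5p, known from early embryonic cells. NovelmiRNA-324 has the seed of the 3p arm of miR-140, NovelmiRNA-946 that of miR-130, miR-301 and miR-454, and no family is given for the other two.
NovelmiRNA-283: aCUGGACUuggagucagaaga
NovelmiRNA-1526: aCUCAAACugugggggcacuuu
NovelmiRNA-324: uACCACAGggcagaaccacgu
NovelmiRNA-946: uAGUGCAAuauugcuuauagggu
NovelmiRNA-1285: cUCCUGGCuggcucgcca
NovelmiRNA-664: uCUGCCUGuaggaaugcuguag

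The precursor of NovelmiRNA-392 lies on the unplaced scaffold GL892871.2:56020-56075 (plus strand) and that of NovelmiRNA-786 at chr13:24885256-24885316 (minus strand). NovelmiRNA-1304 was listed at chr16:6629175-6629257 (minus strand), and 6 entries of the table had its mature sequence, so how reads were divided among them is uncertain. The precursors of NovelmiRNA-150 (chr5:66193720-66193782) and NovelmiRNA-388 (chr5:66194132-66194194) lie 475 bases from end to end on the minus strand. NovelmiRNA-283 was placed at chr12:34821619-34821707 (minus strand), NovelmiRNA-1526 at chr6:52738867-52738926 (plus strand) and NovelmiRNA-324 at chr1:107290840-107290924 (plus strand). No gene annotation of this build was used here, so exon or intron is not given.

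The mature sequences were 18 to 25 nt long (median 22), and 81 of 115 (70.4%) measured 21 to 23 nt. Of the 908 other predicted entries with a sequence, 64.0% were 21 to 23 nt long. A first base of U, common in mature miRNAs, was found in 59 of 115 members (51.3%) and in 42.6% of the other entries. The X chromosome held 15 members (13.0%) against 5.62% of the other entries, and unplaced scaffolds held 18 (15.7%) against 9.03%. These shares are descriptions of 1 table and were not tested. At the count limit, NovelmiRNA-1, NovelmiRNA-844 and NovelmiRNA-1318 had an eighth-highest count of 10, and NovelmiRNA-287, NovelmiRNA-390 and NovelmiRNA-481, just outside, one of 9.

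Library totals ran from 8998496 to 37194836 counts, so 3 counts, the upper limit that a count of 0 allows, corresponded to 0.0807 to 0.333 counts per 1000000 of the total, for counting error only. Known miRNAs fixed as marks of gonadal somatic cells (ssc-miR-202-5p, ssc-miR-224, ssc-miR-383 and ssc-miR-378) summed to 1353 to 4626 CPM per library, and ssc-miR-383 was at 0 in 3 libraries. CPM is the count per 1000000 scaled by the TMM factors (trimmed mean of M values) and is a read level, not corrected for the length of the miRNA. LH4, FL2 and FL4 stood apart in the summed level of 5 known epithelial miRNAs (ssc-miR-429, ssc-miR-34c, ssc-miR-205, ssc-miR-182 and ssc-miR-183), which reached 21828, 7510 and 16082 CPM there and 145 to 1118 CPM in the other 13 libraries. Nearly all of the sum there was ssc-miR-34c, at 21379, 7335 and 15224 CPM against 18.3 to 196 CPM. ssc-miR-429 also lay above all the others, at 103, 42.5 and 341 CPM against 0.946 to 18.7 CPM. ssc-miR-205 (53.0, 29.5 and 144 CPM, others 6.03 to 75.6), ssc-miR-182 (208, 83.2 and 292 CPM, others 30.6 to 747) and ssc-miR-183 (84.7, 20.1 and 81.9 CPM, others 7.37 to 270) did not set the 3 libraries apart. Of the known miRNAs fixed as marks of liver, ssc-miR-885-5p also set them apart (43.1, 25.5 and 61.8 CPM, others 0 to 1.59). ssc-miR-122, also of liver, did not (6.96, 1363 and 113 CPM, others 1.76 to 277). Of those of skeletal or cardiac muscle, ssc-miR-208b was above 0 in LH4 (1.35 CPM) and FL4 (3.11 CPM) alone. The neural ones summed to 84.2, 40.2 and 176 CPM, others 18.8 to 69.1. The members that stand out in these libraries, and the counts of calls, are given with and without them.

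The level of the members was uneven. Their mean CPM ran from 0.388 to 6149 with a median of 4.57, compared with a median of 121 for the 216 known miRNAs. 11 members exceeded 100 CPM, and 77 lay under 10 CPM. The 3 highest, NovelmiRNA-392, NovelmiRNA-786 and NovelmiRNA-1304, held 70.7% of all member counts and the 12 highest 90.1%. Together the members made up 0.419 to 2.14% of a library's counts and 40.4 to 95.0% of its predicted counts, both lowest in LL4.

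NovelmiRNA-392, with the miR-26 seed, was listed at 4367, 7929, 4756 and 5720 CPM in LH1 to LH4. In LL1 to LL4 it stood at 1338, 2133, 2363 and 0 CPM. The FH sows had 5594, 8834, 9951 and 13605 CPM, and the FL sows 13720, 4069, 11198 and 2805 CPM. All 4 LL sows lay below all LH sows, and the FL sows spread over the widest range. The 0 in LL4 belonged to the entry and not to its locus, because a second entry, NovelmiRNA-188, on an overlapping precursor held 4099 CPM there.

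**Figure D1:**
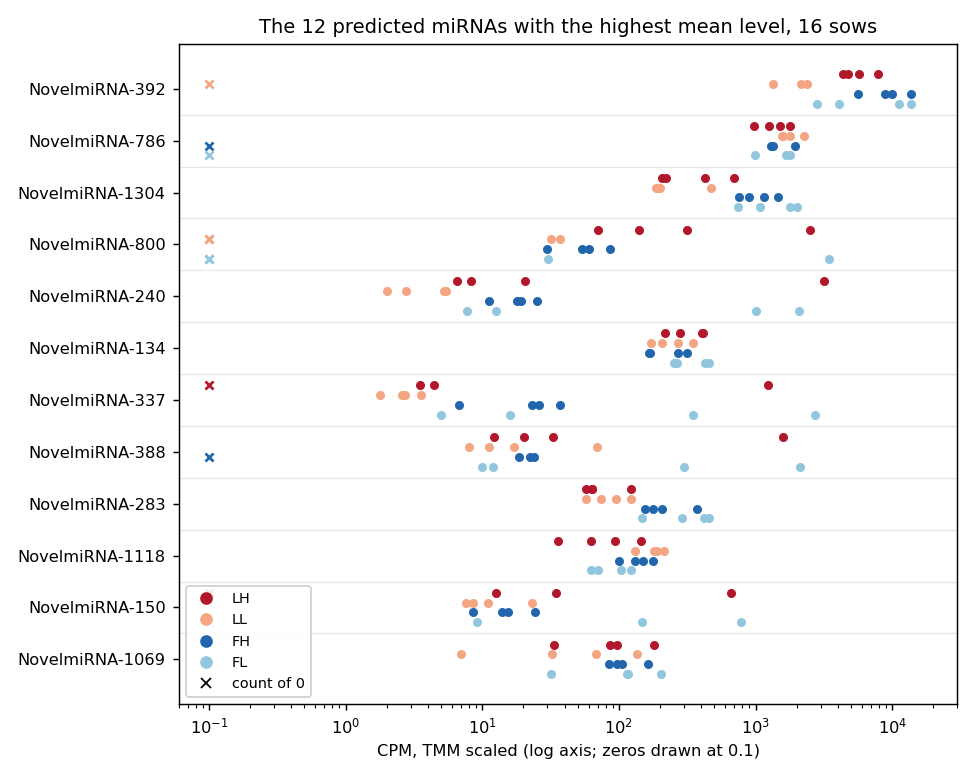
Levels of the 12 members with the highest mean, in CPM on a log axis, with a point for each of the 16 sows coloured by group and a cross for a count of 0. The members with the seeds of miR-200, miR-141, miR-34 and miR-449 have 1 LH sow and 1 or 2 FL sows far above the rest.

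NovelmiRNA-786, the second member with the miR-26 seed, ran from 978 to 1782 CPM in LH and from 1562 to 2277 CPM in LL. In the follicular sows it ranged from 994 to 1957 CPM apart from FH1 and FL4, where the entry was at 0 and another entry at its locus held 1258 and 662 CPM. NovelmiRNA-134 had the smallest ratio of highest to lowest value among the 12, at 166 to 454 CPM over all 16 sows. It shares its seed with NovelmiRNA-168 and NovelmiRNA-342, and NovelmiRNA-342 lay at 19.6 to 50.4 CPM.

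Zeros were frequent and were often not an absence of reads. Of the 1872 values of the 117 members, 400 (21.4%) were 0, and 93 members had at least 1. In 171 of the 400, another entry whose precursor overlaps on the same strand had counts in that library, and 64 members share their locus with at least 1 other entry. Where 2 or more different entries of a member's locus had counts in the same library, the count was the same in 102 of 103 cases. At those 10 loci the entries thus carried, with 1 exception, either the same count or 0. For this reason the fold changes are given both for the entry and for its locus, taking in each library the highest count among the entries of the locus. The 117 members lie at 114 loci, and 229 of the 400 zeros had no other entry of the locus with counts. How reads were assigned to overlapping entries is not stated in the sources used here.

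**Figure D2:**
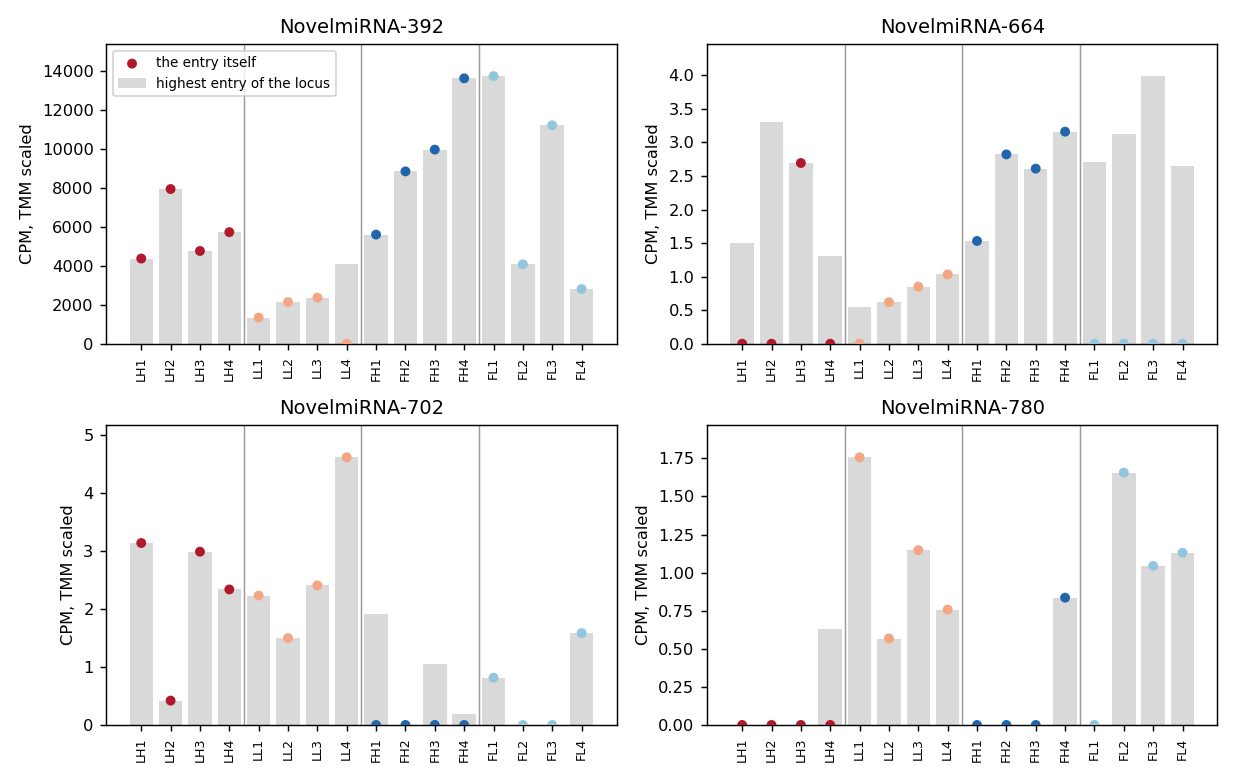
CPM of 4 entries (points, coloured by group) and of the highest entry of their locus (grey bars) in the 16 libraries, on linear axes from 0. NovelmiRNA-664 is at 0 in all 4 FL sows where its locus has 2.66 to 3.99 CPM, and NovelmiRNA-392 is at 0 in LL4 where its locus has 4099 CPM.

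In the luteal phase, the comparison LH vs. LL asked which members differ with fecundity, with the log2 fold change as LL over LH. Of the 112 members that passed the filter on low counts, 10 passed the study's threshold (unadjusted P under 0.05 and at least a doubling or halving), 4 higher and 6 lower in LL, when 13.0% of all 362 features tested passed it (6.63% higher and 6.35% lower). Under scaling by library size alone, the split was 5 higher and 3 lower. With edgeR none of the 112 passed an adjusted p of 0.05, which 0.829% of all features passed. An unadjusted P under 0.05 was found for 11 members (18.0% of all features), and DESeq2 put 6 past the adjusted p, of 52 to which it gave one, beside 12.3% of all features. The median log2 fold change was 0.16 for the members and 0.15 for all features, and 62 of 112 members lay above 0 (55.0% of all features).

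Among the members lower in LL, NovelmiRNA-1526, with the miR-371-5p seed, had 83.9, 138, 94.4 and 20.3 CPM in LH and 5.64, 22.1, 6.18 and 15.8 CPM in LL. LH4 fell among the LL values, the other LH sows above all of them. The log2 fold change was -2.74 ± 0.71 (SE, P = 0.00479 and adjusted p = 0.17 in edgeR, exact permutation p = 0.0571), and between -3.28 and -2.21, past the threshold, under each alternative tried. NovelmiRNA-324, with the miR-140-3p seed, ran from 31.9 to 74.4 CPM in LH and from 14.0 to 23.4 CPM in LL, with no overlap (log2 fold change -1.28 ± 0.42, P = 0.0166 and adjusted p = 0.24 in edgeR, exact permutation p = 0.0286). The range of NovelmiRNA-961 was 28.7 to 94.8 CPM in LH and 15.02 to 26.8 CPM in LL, also without overlap (log2 fold change -1.21 ± 0.46, P = 0.0302 and adjusted p = 0.253 in edgeR, exact permutation p = 0.0286). Its predicted hairpin was the weakest among the members, with a folding energy of -4.6 kcal/mol against a median of -24.5. NovelmiRNA-1245 stood at 1.51, 3.31, 2.69 and 1.30 CPM in LH and at 0.541 to 1.03 CPM in LL (log2 fold change -1.50 ± 0.63, P = 0.0434 and adjusted p = 0.258 in edgeR, exact permutation p = 0.0286).

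NovelmiRNA-240 and NovelmiRNA-337, with the seed of miR-34 and miR-449, had the lowest fold changes. NovelmiRNA-240 was at 8.22, 6.53, 20.6 and 3192 CPM in LH and at 2.77, 2.01, 5.29 and 5.44 CPM in LL. LH4 alone was high, although the other LH sows also lay above the LL sows. Its log2 fold change of -7.75 ± 2.40 (P = 0.0121 and adjusted p = 0.22 in edgeR, exact permutation p = 0.0286) was -1.65 for the locus without LH4. For NovelmiRNA-337 the LH values were 3.51, 0, 4.45 and 1242 CPM and the LL values 1.79 to 3.59 CPM. Its log2 fold change of -6.92 ± 2.77 (P = 0.0367 and adjusted p = 0.253 in edgeR, exact permutation p = 0.629) was 0.0068 without LH4, and -0.51 for the locus.

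Among the members higher in LL, NovelmiRNA-1285 and NovelmiRNA-1671 have the same mature sequence of 18 nt, from chr9:7464752-7464825 (plus strand) and chr8:123413132-123413212 (minus strand), so their values are not independent. NovelmiRNA-1285 had 11.9, 14.8, 5.50 and 7.81 CPM in LH and 76.2, 22.1, 43.3 and 18.4 CPM in LL. The lowest LL sow exceeded the highest LH sow (log2 fold change 2.02 ± 0.62, P = 0.0116 and adjusted p = 0.22 in edgeR, exact permutation p = 0.0286, the smallest that 4 against 4 allows). NovelmiRNA-1118 ran from 35.6 to 146 CPM in LH and from 132 to 213 CPM in LL and overlapped in LH1 (log2 fold change 1.10 ± 0.46, P = 0.0431 and adjusted p = 0.258 in edgeR, exact permutation p = 0.0571).

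NovelmiRNA-780 was at 0 in all 4 LH sows and at 1.76, 0.567, 1.15 and 0.757 CPM in LL. Against the 3 counts per library that a 0 allows, it was at least 6.62-fold higher in LL. It met the count rule in 7 libraries of low and 1 of high fecundity sows. The rule could thus favour it for being high in LL, and the difference is a description. At its locus LH4 held 0.629 CPM, within the LL range, and the log2 fold change of the locus was 2.62 ± 1.49 (adjusted p = 0.36, edgeR), no longer past the threshold.

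Without LH4 (and, where used, FL2 and FL4), 8 members passed the threshold, beside 11.8% of all 415 features tested there. NovelmiRNA-1118 and NovelmiRNA-337 then passed neither by entry nor by locus, and NovelmiRNA-240 and NovelmiRNA-1245 by locus only. With all libraries and read by locus, 21 of 110 loci passed the threshold (9 higher and 12 lower in LL), against 15.2% of all values of that kind. Of the 10 entries above, 9 kept their call by locus. NovelmiRNA-392 was among those added, with a locus log2 fold change of -1.28 ± 0.38 (adjusted p = 0.166, edgeR). A cluster of 4 members lies at chrX:48632395-48643282 (plus strand), with seeds of miR-188, miR-500 and miR-660. By locus the 4 summed to 74.2 to 240 CPM in LH and 239 to 304 CPM in LL. Of these, NovelmiRNA-177 (log2 fold change 1.41 ± 0.40, adjusted p = 0.166, edgeR) and NovelmiRNA-63 (1.61 ± 0.41, adjusted p = 0.157, edgeR) passed the threshold by locus and not by entry. A second X cluster of 5 members, chrX:137140014-137175155 (minus strand), ran from 9.02 to 16.9 CPM in LH and from 19.3 to 33.0 CPM in LL with no overlap.

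Groups did not overlap in 15 of the 112 members, when 15.7% of all features tested had no overlap. Known miRNAs of smooth muscle and stroma also separated the groups by their sum over 4 miRNAs. It ran from 148611 to 246428 CPM in LH and from 84507 to 135648 CPM in LL. Most of it was ssc-miR-143-3p, without overlap (103710 to 194876 CPM in LH, 67363 to 82187 CPM in LL). The groups overlapped in ssc-miR-145-5p (7778 to 17969 and 4589 to 8956 CPM), ssc-miR-199a-5p (29241 to 63463 and 10143 to 43612 CPM) and ssc-miR-214 (654 to 1193 and 383 to 893 CPM). The 6 muscle miRNAs summed to 2155 to 3256 CPM in LH and 449 to 984 CPM in LL. That sum was mostly ssc-miR-1, at 1965 to 2747 CPM in LH and 234 to 729 CPM in LL, while ssc-miR-499-5p lay the other way, at 56.7 to 127 CPM in LH and 137 to 154 CPM in LL. Their part in the differences between the members was not tested.

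**Figure D3:**
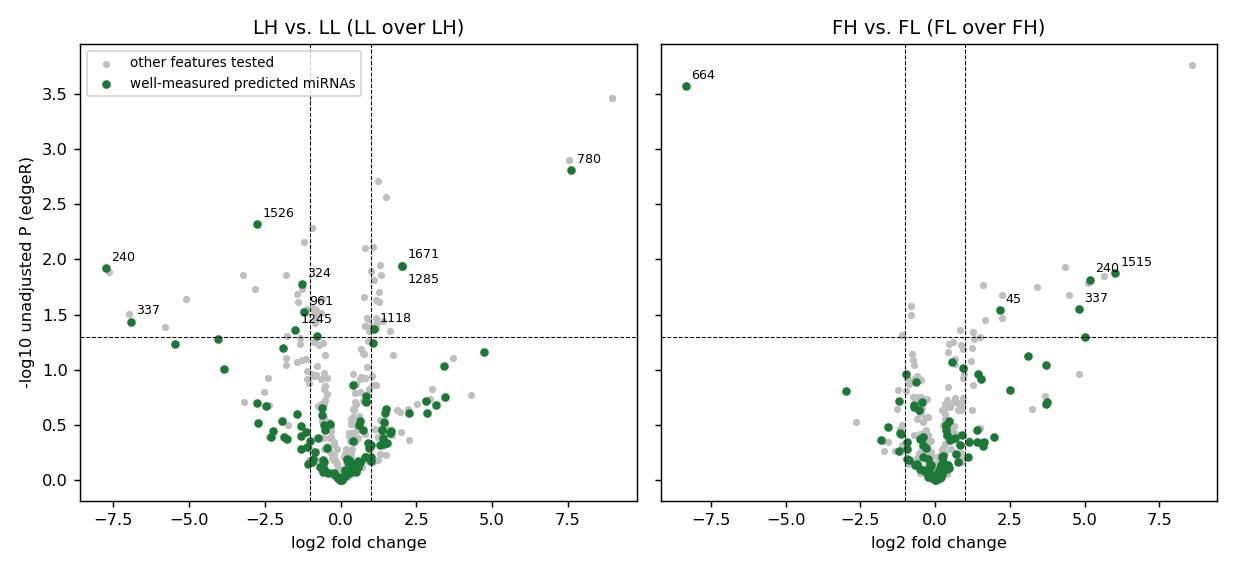
Log2 fold change (horizontal) against -log10 of the unadjusted edgeR P (vertical) in the luteal (left) and follicular (right) fecundity comparison, with the members in green, the other features tested in grey and dashed lines at the study's threshold. Members past the threshold carry their number, with NovelmiRNA-664 alone at the far left of FH vs. FL at a log2 fold change of -8.33.

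In the follicular phase, the comparison FH vs. FL gave the log2 fold change as FL over FH. Of 89 members tested, 5 passed the threshold, 4 higher and 1 lower in FL, beside 6.19% of all 307 features tested (5.54% higher and 0.651% lower). The median log2 fold change was 0.13 for the members and 0.12 for all features. The groups did not overlap in 3 members (NovelmiRNA-664, NovelmiRNA-1249 and NovelmiRNA-1478), and in 2.61% of all features. By locus NovelmiRNA-1249 overlapped as well as NovelmiRNA-664, since its entry at 0 in FL4 had 3.39 CPM at the locus, above FH2 at 3.05 CPM. NovelmiRNA-1478 ran from 5.96 to 8.23 CPM in FH and from 1.17 to 4.63 CPM in FL, by entry and by locus.

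NovelmiRNA-664 was the single member past an adjusted p of 0.05 (log2 fold change -8.33 ± 0.88, adjusted p = 0.0415, edgeR), beside 0.651% of all features. DESeq2 put 4 members past it, beside 3.65% of all features. NovelmiRNA-664 stood at 1.53, 2.82, 2.61 and 3.16 CPM in FH and at 0 in all 4 FL sows, at least 11.1-fold lower in FL against 3 counts per library. It met the count rule in just 8 libraries, all 4 FH sows among them, so the rule could favour it for being high in FH. The FL sows had reads at the locus, listed under other entries, at 2.71, 3.12, 3.99 and 2.66 CPM. By locus the log2 fold change was 0.22 ± 0.38 (adjusted p = 0.838, edgeR), so the difference lay between entries of 1 locus. NovelmiRNA-664 and NovelmiRNA-1245 have the same mature sequence, from the 3p arm of chr16:59466878-59466926 and the 5p arm of chr16:59466905-59466966 (both plus strand).

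Of the 4 members higher in FL, 3 were high in FL2 and FL4 alone. NovelmiRNA-1515, with the seed of miR-375, a miRNA of endocrine and epithelial cells, was at 2.87, 3.39, 3.38 and 2.18 CPM in FH and at 1.68, 186, 1.61 and 711 CPM in FL (log2 fold change 6.01 ± 1.89, P = 0.0134 and adjusted p = 0.585 in edgeR, exact permutation p = 0.429). NovelmiRNA-240 had 11.2 to 25.2 CPM in FH and 7.70, 1014, 12.6 and 2070 CPM in FL (5.18 ± 1.68, P = 0.0152 and adjusted p = 0.585 in edgeR, exact permutation p = 0.40). NovelmiRNA-337 had 6.76 to 37.3 CPM in FH and 15.8, 350, 5.03 and 2701 CPM in FL (4.80 ± 1.79, P = 0.0284 and adjusted p = 0.591 in edgeR, exact permutation p = 0.40). In each of these FL1 and FL3 lay near or below the FH sows. Without FL2 and FL4 the log2 fold changes were -0.80 for NovelmiRNA-1515, -0.86 for NovelmiRNA-240 and -1.03 for NovelmiRNA-337. NovelmiRNA-45, whose mature sequence of 18 nt is 94.4% G and C, was at 0.705 to 1.78 CPM in FH and at 0.868, 13.9, 2.85 and 7.63 CPM in FL (2.15 ± 0.81, P = 0.0289 and adjusted p = 0.591 in edgeR, exact permutation p = 0.114). In NovelmiRNA-45, 3 of the 4 FL sows lay above the highest FH sow, and the log2 fold change was 0.48 without FL2 and FL4.

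By locus, 9 of 94 loci passed the threshold, all higher in FL, against 6.81% of all 323 values. Without FL2 and FL4 none of these 9 passed, and 1 other locus did, beside 1.30% of all 384 values tested there. That locus, NovelmiRNA-1669 (named after its values were seen), was lower in FL (log2 fold change -8.17 ± 3.11, adjusted p = 0.992, edgeR). FL1, FL3 and also FH2 were at 0 there. The 9 included NovelmiRNA-800, NovelmiRNA-388 and NovelmiRNA-150.

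The 6 members printed above with the seeds of the miR-200, miR-34 and miR-375 families shared this pattern in both phases. In each, LH4 and FL4 were at least 5 times the highest of the 13 libraries other than LH4, FL2 and FL4. These 3 libraries held 97.9% of all counts of NovelmiRNA-240, 97.2% of NovelmiRNA-337, 93.8% of NovelmiRNA-1515, 93.2% of NovelmiRNA-388, 89.7% of NovelmiRNA-150 and 87.9% of NovelmiRNA-800. NovelmiRNA-388 was at 1577 CPM in LH4, 301 in FL2 and 2131 in FL4, and at 0 to 69.6 CPM in the other 13. NovelmiRNA-150, its neighbour on chromosome 5, was at 656, 147 and 785 CPM there and at 0 to 34.7 CPM in the others. NovelmiRNA-800 was at 2503 CPM in LH4, at 3461 CPM in FL4 and at 0 in FL2, where its locus held 368 CPM. LH3 was close to that locus value, at 313 CPM. In LL4 the entry was at 0 where its locus held 6152 counts, which the share above, taken by entry, leaves out. LL4 was the highest of the 13 in NovelmiRNA-388 (69.6 CPM), NovelmiRNA-1515 (24.8 CPM) and ssc-miR-429 (18.7 CPM). It was not in NovelmiRNA-240, NovelmiRNA-337 and NovelmiRNA-150. The known ssc-miR-34c, of the same seed family as NovelmiRNA-240, had 97.9% of its counts in these 3 libraries, and ssc-miR-429, of the seed of NovelmiRNA-800, 87.7%. The other epithelial miRNAs had smaller shares there, at 38.0% for ssc-miR-205, 12.9% for ssc-miR-182 and 12.5% for ssc-miR-183. The part of the epithelial miRNAs, or of the liver miRNA ssc-miR-885-5p, in these values was not tested.

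**Figure D4:**
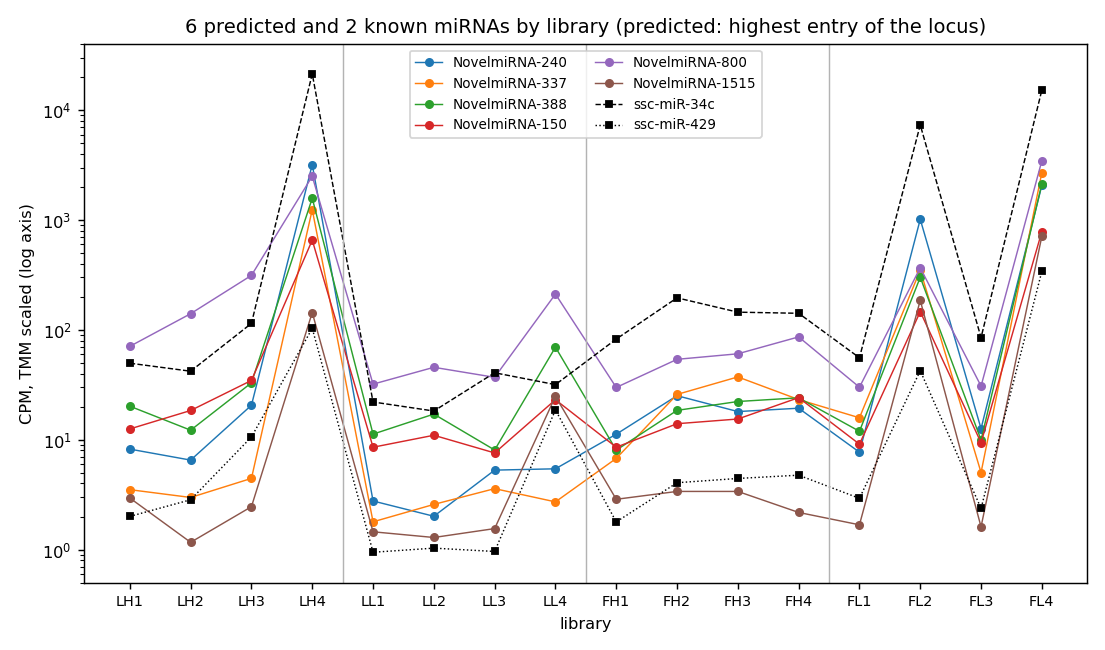
CPM on a log axis, read by locus as the highest entry, of the 6 members with the seeds of the miR-200, miR-34 and miR-375 families, and of the known ssc-miR-34c and ssc-miR-429 in the 16 libraries. LH4 and FL4 stand above the 13 libraries other than LH4, FL2 and FL4 in each of the 6 members.

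The phases were compared as luteal over follicular, over all 16 sows. Of 117 members, 10 passed an adjusted p of 0.05, 6 higher and 4 lower in the luteal phase, beside 17.5% of all 445 features tested (8.99% higher and 8.54% lower). Scaling by library size alone gave 8 higher and 3 lower. The median log2 fold change was 0.24 for the members and 0.17 for all features, and 70 of 117 members lay above 0 (55.5% of all features). The count rule could favour members high in 1 phase: 49 members had at least 10 counts in more luteal than follicular libraries, 30 in more follicular ones and 38 in equally many.

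NovelmiRNA-1304, with the let-7 seed, fell to 188 to 692 CPM in the 8 luteal sows (LH 387 ± 227, LL 264 ± 141, SD, n = 4 each) from 748 to 2013 CPM in the 8 follicular sows (FH 1072 ± 313, FL 1406 ± 594), with no overlap. The log2 fold change was -1.94 ± 0.33 (adjusted p = 0.00222, edgeR). The let-7 family is known for restraining proliferation. NovelmiRNA-283, with the miR-378 seed, ran from 57.4 to 123 CPM in the luteal and from 148 to 458 CPM in the follicular sows, also without overlap (log2 fold change -1.74 ± 0.30, adjusted p = 0.00222, edgeR). miR-378 is known to act on aromatase, which makes estradiol in granulosa cells. Both stayed past the adjusted p without LH4, FL2 and FL4. Groups did not overlap in 5 of 117 members, and in 1.80% of all features.

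NovelmiRNA-324, with the miR-140-3p seed, was lower in the luteal phase (log2 fold change -1.24 ± 0.35, adjusted p = 0.0259, edgeR), from 14.0 to 74.4 CPM against 15.7 to 131 CPM. The lowest follicular value was FL4 and the other 7 follicular sows lay between 57.8 and 131 CPM. NovelmiRNA-1168, whose mature sequence opens with the let-7 seed letters moved by 1 base, was at 0 in all 4 LL sows, at 0 to 7.61 CPM in LH and at 0 to 53.0 CPM in the follicular sows (log2 fold change -6.28 ± 1.70, adjusted p = 0.0264, edgeR). It met the count rule in 3 luteal and 6 follicular libraries, so the rule could favour it for being high in the follicular phase. By locus NovelmiRNA-392 was also lower in the luteal phase (-1.16 ± 0.37, adjusted p = 0.0378, edgeR).

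Among the 6 higher in the luteal phase, NovelmiRNA-1444 and NovelmiRNA-181 lie in a cluster of 7 members on scaffold GL894231.1:10062-31743 (minus strand). Some of its seeds are those of miR-376 and miR-377, known from the imprinted Dlk1-Dio3 region. NovelmiRNA-1444 was at 2.98 to 12.3 CPM in the luteal and at 1.24 to 4.07 CPM in the follicular sows (log2 fold change 1.75 ± 0.47, adjusted p = 0.0203, edgeR). NovelmiRNA-181 was at 5.21 to 16.5 CPM and at 1.53 to 7.91 CPM (1.39 ± 0.44, adjusted p = 0.0401, edgeR). The 7 members lie close together on 1 strand and are not taken as independent. All 7 had a log2 fold change above 0 (55.5% of all features), and 3 passed the adjusted p (17.5% of all features). The third was NovelmiRNA-702, at 0.420 to 4.61 CPM in the luteal sows and at 0 in 6 of 8 follicular sows (5.27 ± 1.18, adjusted p = 0.0137, edgeR), which by locus was 1.86 ± 0.98 (adjusted p = 0.189, edgeR). NovelmiRNA-702 met the count rule in 7 luteal and 2 follicular libraries, so the rule could favour it for being high in the luteal phase. By locus 4 of the 7 passed (NovelmiRNA-1444, NovelmiRNA-181, NovelmiRNA-254 and NovelmiRNA-1146), and the cluster summed to 15.1 to 45.4 CPM in the luteal and 5.12 to 32.4 CPM in the follicular sows.

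NovelmiRNA-946, with the seed of miR-130, miR-301 and miR-454, was at 6.01 to 30.0 CPM in the luteal and at 3.12 to 10.6 CPM in the follicular sows (log2 fold change 1.25 ± 0.36, adjusted p = 0.0273, edgeR). NovelmiRNA-720 has the same mature sequence and overlaps it at chr12:37088132-37088194 (plus strand). NovelmiRNA-1708, for which no sequence was listed, was at 17.4 to 148 CPM in the luteal and at 8.74 to 47.2 CPM in the follicular sows (1.71 ± 0.47, adjusted p = 0.0225, edgeR). NovelmiRNA-1355 was low, at 0 to 3.25 CPM in the luteal sows and at 0 in 7 of 8 follicular sows (5.27 ± 1.48, adjusted p = 0.0299, edgeR). It met the count rule in just 8 libraries, all luteal but FL4. The rule could thus favour it for being high in the luteal phase, and the difference is a description.

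**Figure D5:**
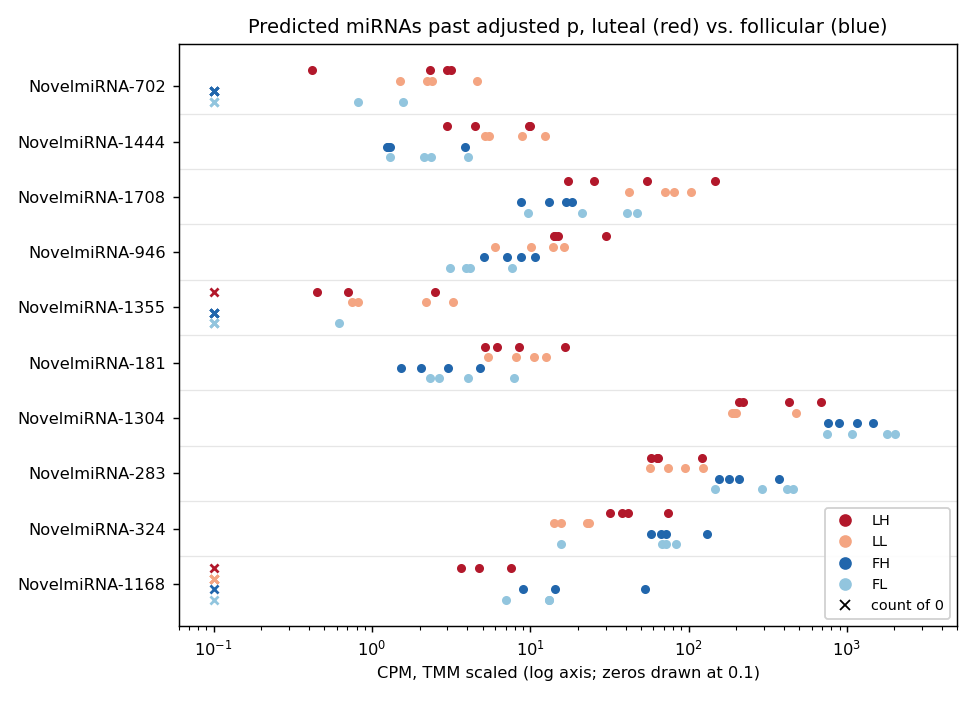
CPM on a log axis of the members past an adjusted p of 0.05 between the phases, with a point for each sow in LH, LL, FH and FL. NovelmiRNA-1304 and NovelmiRNA-283 have no luteal sow as high as the lowest follicular sow.

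By locus, 24 of 114 loci passed the adjusted p (13 higher and 11 lower in the luteal phase), against 23.3% of all 460 values. Without LH4, FL2 and FL4, 5 members passed by entry, beside 8.09% of all features, and 17 loci, beside 19.7% of all values. The 5 were NovelmiRNA-254, NovelmiRNA-283, NovelmiRNA-324, NovelmiRNA-1304 and NovelmiRNA-1708. NovelmiRNA-946 and NovelmiRNA-702 then passed neither way, and NovelmiRNA-1444, NovelmiRNA-181, NovelmiRNA-1355 and NovelmiRNA-1168 by locus only. Of the members with the miR-200, miR-34 and miR-375 seeds, NovelmiRNA-337 alone was among the 17 loci. It was lower in the luteal phase there (log2 fold change -2.41 ± 0.49, adjusted p = 0.00842, edgeR). Within the high fecundity sows alone (LH vs. FH) none of 99 members passed with edgeR, beside 0.929% of all features, and 14 had an unadjusted P under 0.05 (15.8% of all features). Within the low fecundity sows alone 5 of 104 passed, beside 17.7% of all features. Known miRNAs moved with the phase too. Those of smooth muscle and stroma, mostly ssc-miR-143-3p, summed to 84507 to 246428 CPM in the luteal and 197995 to 488813 CPM in the follicular sows. The phases overlapped in each of these miRNAs, among them ssc-miR-199a-5p at 10143 to 63463 and 16847 to 64145 CPM. ssc-miR-202-5p, a gonadal miRNA, was at 1209 to 3843 CPM in the luteal and at 64.5 to 1302 CPM in the follicular sows, and ssc-miR-378 at 681 to 935 CPM and at 854 to 2174 CPM. The other gonadal ones were ssc-miR-224, at 2.70 to 29.6 and 1.80 to 8.01 CPM, and ssc-miR-383, at 0 to 0.674 and 0 to 5.88 CPM. The gonadal sum overlapped between the phases, at 1961 to 4626 and 1353 to 2387 CPM. Their part in the differences between the phases was not tested.

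Whether the fecundity difference differed between the phases was tested as an interaction. No member passed an adjusted p of 0.05 with edgeR, as 0% of all features did, 14 had an unadjusted P under 0.05 (14.2% of all features), and 10 passed with DESeq2 (13.2% of all features). The 14 also passed the threshold on size, when 13.3% of all 445 features did, and the 6 members of the miR-200, miR-34 and miR-375 seeds were among them. By locus 11 of the 14 passed in the same direction. Of the other 3, NovelmiRNA-664 went from 8.49 to -1.82 (adjusted p = 0.216, edgeR), NovelmiRNA-702 from -6.27 to 0.71 (adjusted p = 0.921, edgeR) and NovelmiRNA-780 from 5.23 to 0.72 (adjusted p = 0.936, edgeR). NovelmiRNA-240 had the smallest P (log2 difference -13.09 ± 3.07, adjusted p = 0.0813, edgeR). Without LH4, FL2 and FL4 none of the 6 had an unadjusted P under 0.05. Their log2 differences were then -0.67 ± 1.01 for NovelmiRNA-240, 1.11 ± 1.98 for NovelmiRNA-337, 2.69 ± 1.84 for NovelmiRNA-1515, 0.92 ± 2.17 for NovelmiRNA-388, 1.26 ± 2.71 for NovelmiRNA-150 and -1.70 ± 3.13 for NovelmiRNA-800. By locus without these libraries they lay between -0.90 (NovelmiRNA-240) and 2.31 (NovelmiRNA-1515). NovelmiRNA-1526 had a log2 difference of -2.99 ± 0.96 (adjusted p = 0.166, edgeR) and NovelmiRNA-1118 one of 1.72 ± 0.57 (adjusted p = 0.169, edgeR). By locus none of the 114 loci passed the adjusted p, and 0.435% of all 460 values did.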

How the data were processed

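Small RNA of 16 sow ovaries was sequenced (NEBNext kit, PCR without molecular identifiers, Illumina HiSeq). The authors trimmed reads with Trimmomatic, aligned them with Bowtie2 (version 2.1.0, from the submitters' processing notes) to Sscrofa10.2, took the unmapped reads into a prediction with miRDeep and deposited raw counts per entry, 1 column per sow. Read assignment to overlapping entries is not given in the sources used here. Groups came from the labels, which name no culture or batch, and each sow is 1 replicate.

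Counts of all 1940 entries were tested with edgeR 4.0.16 (R 4.3.3) by its quasi-likelihood test after TMM scaling, with filterByExpr (minimum count 10, minimum total 15). The fecundity contrasts used 8 libraries and the others all 16. The study's threshold was P under 0.05 before adjustment together with a log2 fold change of 1 or more in either direction. Adjusted p is Benjamini-Hochberg over all features tested, and SE is the log2 fold change over the root of F. Exact permutation tests were two-sided, on log2(CPM + 1). DESeq2 1.42.0, other scalings and filters, a replicate block, left-out libraries and 1 value a locus were alternatives; reading the highest entry of a locus and leaving out LH4, FL2 and FL4 were chosen after seeing the data. The fits were tested on simulated data.

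Named were the 12 highest members, those past the threshold in a fecundity comparison, up to 8 per direction past the adjusted p between the phases and up to 5 in the interaction. Matches to annotated porcine miRNAs were not analysed here. Cluster and family members beyond that rule were named after their values were seen. The members and lists were chosen with earlier results of these data known. Clusters join members within 50 kb on 1 strand.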

Additional observations from a re-analysis of the deposited data

Results flagged for a closer look

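Within groups of 4 sows, 15 of 111 groups of the named members had 1 sow far from the other 3 by Dixon's ratio at its 95% critical value. The ratio was taken on log2(CPM + 1), and chance gives about 1 in 20 for normally distributed values. On that scale a sow far above the rest in CPM, as LH4 for NovelmiRNA-240, was not always flagged. In 3 of them (NovelmiRNA-1355 in FL, NovelmiRNA-664 in LH and NovelmiRNA-780 in FH) the other 3 sows were all at 0, where the ratio is 1 by construction. In 4 of the 15 the sow had a count of 0: NovelmiRNA-392 in LL4 (0, others 1338 to 2363 CPM), NovelmiRNA-786 in FH1 (0, others 1303 to 1957 CPM) and in FL4 (0, others 994 to 1779 CPM), and NovelmiRNA-388 in FH1 (0, others 18.5 to 24.1 CPM). In all 4 another entry of the locus had counts in that sow.

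In 3 the sow was LH4 or FL4 and lay above the rest: NovelmiRNA-1515 was at 144 CPM in LH4 (others 1.17 to 2.95), NovelmiRNA-283 at 122 CPM in LH4 (others 57.6 to 64.1) and NovelmiRNA-1355 at 0.622 CPM in FL4 (others 0). NovelmiRNA-1515 was also at 24.8 CPM in LL4 (others 1.29 to 1.55). NovelmiRNA-324 was at 15.7 CPM in FL4 (others 68.1 to 82.9).

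NovelmiRNA-1304 was at 475 CPM in LL2 (others 188 to 201) and NovelmiRNA-961 at 15.02 CPM in LL3 (others 24.8 to 26.8). NovelmiRNA-946 was at 30.0 CPM in LH3 (others 14.1 to 14.9) and NovelmiRNA-664 at 2.69 CPM in LH3 (others 0). NovelmiRNA-1444 was at 3.89 CPM in FH1 (others 1.24 to 1.31) and NovelmiRNA-780 at 0.835 CPM in FH4 (others 0).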

How the results depend on the processing

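For LH vs. LL (10 members), 1 value a locus gave 21 by summing or by the highest entry, 16 with the libraries LH4, FL2 and FL4 also left out, and the replicate block 6. Leaving out 1 sow gave 8 to 16 (16 without LH1). For FH vs. FL (5), DESeq2 gave 8, 1 value a locus 9 by either way, the replicate block 1, the 3 libraries left out 2, both together 1 and all 16 libraries in 1 fit 8. Leaving out 1 sow gave 3 (FH2) to 11 (FL1). Between the phases (10), DESeq2 gave 22, no filter 2, 1 value a locus 24 by either way, the replicate block 4, the 3 libraries left out 5, both together 17, high fecundity sows alone 0, low fecundity sows alone 5 and the study's threshold 17. Leaving out 1 sow gave 3 (FL3) to 11. For the interaction (0), DESeq2 gave 10, no filter 5 and the study's threshold 14, and leaving out 1 sow 0 to 1. At least 10 counts in 12 libraries left 68 members. The causes were not tested. The log2 fold change of NovelmiRNA-337 in LH vs. LL changed sign without LH4 (0.0068) and ran from -7.37 to 0.0068 with 1 sow left out. In FH vs. FL, that of NovelmiRNA-664 turned with entries of a locus merged (0.21), with the highest entry (0.22) and with both changes (0.46). With the 3 libraries left out, and then also by locus, NovelmiRNA-240 was at -0.86 and -0.83, NovelmiRNA-337 at -1.03 and -1.01 and NovelmiRNA-1515 at -0.80 and -0.78. Same-numbered sows correlated at -0.19 to 0.20, so the numbers were not taken as pairs. Library size alone moved the median log2 fold change of all features from 0.15 to 0.73 in LH vs. LL, from 0.12 to 0.44 in FH vs. FL and from 0.17 to 0.55 between the phases. Depth limits the low members: 3 counts were 0.101 (LL1) to 0.339 (FH2) CPM.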
